A study of Homo sapiens with 4 samples.

Results

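Forkhead factors are transcription factors that share a winged-helix DNA-binding domain, the forkhead box, and are sorted by its sequence into subfamilies named with letters. FOXA members open chromatin in endoderm and are not considered here. Genes were taken by symbol, as FOX followed by a letter from A to S, a number and at most 1 further letter, leaving out FOXA1, FOXA2, FOXA3, FOXC1, FOXC2 and FOXH1. This gave 40 genes of the 57905 identifiers in the table, 38 of them annotated as protein coding in GENCODE and 2, FOXO1B and FOXO3B, as processed pseudogenes.

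The subfamilies differ in how they work. FOXO proteins are held in the cytoplasm when insulin or growth factor signals activate PI3K and AKT, and otherwise switch on genes of cell cycle arrest, stress defence and autophagy. FOXM1 drives genes of mitosis together with the MuvB complex, FOXP and FOXK proteins mostly repress transcription with corepressor complexes, and FOXD3 is known from pluripotent cells and the neural crest, while many other members mark single embryonic tissues.

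Polyadenylated RNA was sequenced from cells labelled MG63, a human osteosarcoma line, 48 hours after transfection with an siRNA against KLF11, a zinc finger repressor, or with a control siRNA. Each group held 2 libraries, called KLF11 siRNA and control siRNA replicates 1 and 2 below. Separate cultures are not stated in the labels, so the p-values reflect the spread among the 4 libraries alone, and that spread may be technical. Levels are FPKM, fragments scaled to gene length and library size, which can be compared between genes. The read depth is unknown, because only FPKM with 2 decimals were deposited. KLF11 itself measured 5.49 and 6.74 FPKM in KLF11 siRNA libraries, against 12.3 and 12.4 FPKM in control siRNA libraries (log2 change -0.92, SE 0.139, adjusted p = 0.00951, limma).

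Markers matched the labelled cell type only in part, and every listed pluripotency and endoderm marker averaged 1 FPKM or more. Whether the cells were the labelled line was not tested. Of 17 osteoblast and mesenchymal markers 6 averaged 1 FPKM or more, namely ALPL, SPARC, COL1A1, COL1A2, VIM and THY1. IBSP was listed at 0 in every library, and RUNX2, the osteoblast master regulator, reached at most 0.65 FPKM. Pluripotency markers, all 9 of 9 over that level, summed to 3010 and 2501 FPKM in KLF11 siRNA libraries, against 1521 and 1533 FPKM in control siRNA libraries. Endoderm markers, 8 of 8 over it, summed to 1303 and 3044 FPKM in KLF11 siRNA replicates 1 and 2, against 5116 and 5086 FPKM in control siRNA libraries. Pericyte and smooth muscle markers, 7 of 10 over it, summed to 1497 and 1265 FPKM in KLF11 siRNA libraries, against 428 and 381 FPKM in control siRNA libraries. The osteoblast and mesenchymal list summed to 1849 and 1856 FPKM in KLF11 siRNA libraries, against 1071 and 1015 FPKM in control siRNA libraries. In that list VIM and THY1 rose, COL1A1 fell, and ALPL, COL1A2 and SPARC did not pass. Leukocyte markers summed to at most 1.04 FPKM in any library. The part of these differences in the forkhead results was not tested, and in bulk RNA fewer cells of a type and less RNA per cell cannot be told apart.

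Of the 40 genes, 16 had a mean of at least 1 FPKM over the libraries and were tested with all other genes of that level. FOXO1, FOXD3, FOXB1, FOXP1 and FOXN3 rose with KLF11 siRNA, 0 fell and 11 did not pass an adjusted p of 0.05 (limma). At an unadjusted p under 0.05 in limma there were 6 higher and 2 lower members, against 7353 of all 15320 genes tested, in either direction. At the adjusted threshold 13.5% of all genes tested were higher and 21.7% lower. The split of the members depended on the filter, which FOXB1 passed through the KLF11 siRNA libraries alone. Fitted with no filter, 3 of 36 members were higher (FOXB1, FOXD3 and FOXO1) and 3 lower (FOXI1, FOXI2 and FOXP2). Of all genes in that fit 2.59% were higher and 3.65% lower. The median log2 change was 0.11 over the 16 tested members and -0.11 over all tested genes. For 11 of the 16 the groups' ranges stood apart, 7 higher and 4 lower with KLF11 siRNA, and the same held for 73.4% of all tested genes, 28.9% higher and 44.5% lower. The 5 calls needed both control siRNA libraries. In limma their adjusted p lay between 0.0809 and 0.175 when control siRNA replicate 1 was left out and between 0.0806 and 0.129 when replicate 2 was, with every log2 change above 0, and 0 genes of all those tested then passed (4461 and 4793 at an unadjusted p under 0.05). The same holds for each gene list below. Median-of-ratios scaling moved the median of all genes by 0.10 and quantile normalization by 0.12. Median-of-ratios scaling gave 2728 genes higher and 2664 lower, against 2071 and 3329 here.

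The promoters of the members that rose are shown first, to let their sequence be read beside their values. As background, KLF and SP proteins bind GC-rich boxes. RefSeq (GRCh38.p14) gave starts for 31 of the 40 members, 14 of them tested. The lines give the 250 bases before the annotated start, on the gene's strand, with each GGGCGG (or CCGCCC, its reverse complement) in capitals. FOXP1 has 6 annotated starts, and the window with such boxes is given.
FOXD3 at chr1:63322317-63322566 (plus strand): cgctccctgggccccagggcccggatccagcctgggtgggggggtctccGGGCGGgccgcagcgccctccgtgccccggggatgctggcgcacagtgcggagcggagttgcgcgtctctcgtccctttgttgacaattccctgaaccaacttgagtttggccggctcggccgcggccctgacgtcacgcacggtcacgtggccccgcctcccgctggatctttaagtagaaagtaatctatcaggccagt
FOXO1 at chr13:40666642-40666891 (minus strand): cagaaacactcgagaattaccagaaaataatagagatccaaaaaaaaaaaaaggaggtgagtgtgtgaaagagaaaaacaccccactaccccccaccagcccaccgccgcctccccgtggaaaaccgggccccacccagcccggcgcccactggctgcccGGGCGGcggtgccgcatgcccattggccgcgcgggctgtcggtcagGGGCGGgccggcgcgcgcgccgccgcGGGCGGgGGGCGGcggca
FOXN3 at chr14:89619166-89619415 (minus strand): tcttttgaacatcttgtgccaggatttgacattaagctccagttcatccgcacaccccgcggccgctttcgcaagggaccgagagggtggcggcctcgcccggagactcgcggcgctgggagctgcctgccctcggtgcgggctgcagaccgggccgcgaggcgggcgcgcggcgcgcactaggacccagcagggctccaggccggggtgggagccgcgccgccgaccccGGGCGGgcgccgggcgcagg
FOXB1 at chr15:60004061-60004310 (plus strand): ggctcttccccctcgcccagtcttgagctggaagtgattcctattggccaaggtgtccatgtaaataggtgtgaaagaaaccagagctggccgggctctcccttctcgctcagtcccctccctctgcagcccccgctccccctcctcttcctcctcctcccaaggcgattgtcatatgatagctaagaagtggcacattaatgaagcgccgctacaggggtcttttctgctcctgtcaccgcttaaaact
FOXP1 at chr3:71064925-71065174 (minus strand): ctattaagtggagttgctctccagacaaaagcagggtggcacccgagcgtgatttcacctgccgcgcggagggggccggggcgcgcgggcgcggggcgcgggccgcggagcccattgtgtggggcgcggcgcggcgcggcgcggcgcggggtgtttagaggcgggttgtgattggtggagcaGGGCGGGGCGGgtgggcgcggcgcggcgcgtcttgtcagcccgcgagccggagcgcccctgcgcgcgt
The box GGGCGG, read on either strand, was found in 42.6% of all 35116 promoter windows of that length. It lay in 4 of the 10 windows of members that rose and in 10 of the 14 windows of tested members that did not pass. FOXP1 alone supplied 6 of those 10 windows, so windows do not stand for genes. By gene, the box was in some window of 4 of the 5 members that rose. It was in some window of 11 of all 14 tested members with windows. FOXO1 held 4 boxes, FOXP1 2, FOXD3 1, FOXN3 1 and FOXB1 0. CACCC, another short sequence bound by KLF proteins, was in 7 of the 10 windows, in 8 of the 14 windows and in 54.7% of all windows. By gene, CACCC was in 4 of the 5 members that rose and in 10 of the 14 tested members. The forkhead motif TGTTTAC (reverse complement GTAAACA) was in 2.98% of all windows and, among members, only in another window of FOXP1. The TEAD motif GGAATG (reverse complement CATTCC) was in 11.9% of all windows and in 2 of the 24 windows of tested members. Matches were counted on both strands, GGGCGG and CACCC matches can overlap, and a match describes sequence, not binding.

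**Figure D1:**
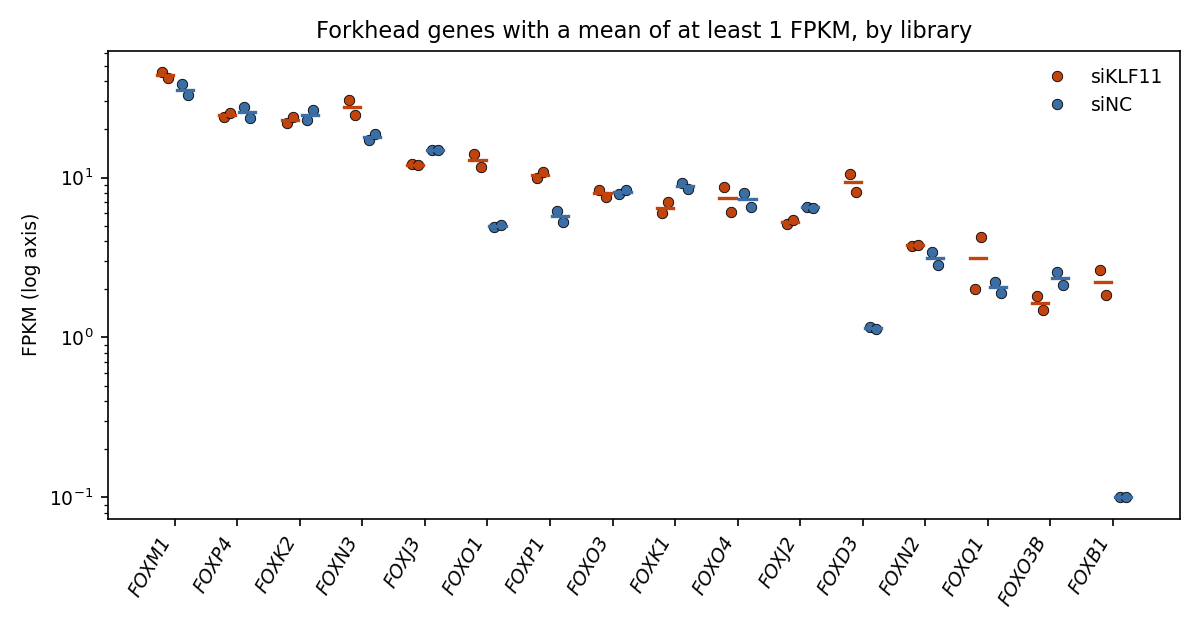
Level of each tested forkhead gene in FPKM (log axis), ordered by mean. Points are libraries, with KLF11 siRNA (siKLF11) left of control siRNA (siNC), and bars are group means (n = 2 each). FOXB1, FOXD3 and FOXO1 show the widest gaps between the groups, while FOXP4, FOXK2, FOXO3, FOXO4 and FOXQ1 overlap.

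Among FOXO factors FOXO1 rose, and FOXO3 and FOXO4 did not pass. FOXO1 (ENSG00000150907), which links insulin signals to arrest and metabolism and which human embryonic stem cells are known to need, measured 14.0 and 11.7 FPKM in KLF11 siRNA libraries, against 4.90 and 5.07 FPKM in control siRNA libraries. Both KLF11 siRNA libraries lay far above both controls. The mean was 2.57-fold higher (log2 change 1.20, SE 0.139, adjusted p = 0.00557, limma). FOXO3, the member best known for stress and survival signals, measured 8.41 and 7.61 FPKM in KLF11 siRNA libraries, against 7.87 and 8.41 FPKM in control siRNA libraries. Its groups overlapped, with a 95% interval of the log2 change of -0.34 to 0.30. FOXO4 measured 8.73 and 6.10 FPKM in KLF11 siRNA libraries and 8.03 and 6.57 FPKM in control siRNA libraries, with an interval of -0.50 to 0.52. Replicate 1 of FOXO4 was the higher in both groups, and the spread within groups exceeded the gap between them.

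FOXO1 lay above FOXO3 in both KLF11 siRNA libraries and below it in both control siRNA libraries. The ratio of FOXO1 to FOXO3, both in FPKM, was 1.66 and 1.53 in KLF11 siRNA libraries, against 0.623 and 0.603 in control siRNA libraries. Summed over its 6 genes the subfamily reached 33.1 and 27.2 FPKM in KLF11 siRNA libraries, against 23.6 and 22.2 FPKM in control siRNA libraries. FOXO3B, a processed pseudogene copied from FOXO3, measured 1.81 and 1.49 FPKM in KLF11 siRNA libraries and 2.55 and 2.13 FPKM in control siRNA libraries (adjusted p = 0.219, limma). It shares sequence with FOXO3, so the split of reads between them is uncertain. FOXO6, a brain-enriched member, stayed at 0.30 FPKM or less in every library, and the pseudogene FOXO1B was listed above 0 in 1 library alone, at 0.03 FPKM.

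The surroundings of FOXO were mixed. The 30 genes of PI3K and AKT control of FOXO were all tested, with a median log2 change of 0.12. Among them 9 rose (30%, against 13.5% of all tested genes) and 4 fell (13.3%, against 21.7%). IRS1, the insulin receptor substrate, rose (log2 change 1.94) and measured 13.9 and 10.9 FPKM in KLF11 siRNA libraries, against 2.56 and 2.38 FPKM in control siRNA libraries. INPP4B, a lipid phosphatase that damps PI3K signals, SGK1, a kinase that phosphorylates FOXO proteins, and SKP2, a ubiquitin ligase subunit for FOXO1, also rose, by 9.10-fold, 4.59-fold and 1.36-fold. INPP4B and SGK1 averaged under 1 FPKM in control siRNA libraries and passed the filter through the KLF11 siRNA libraries alone. The 4 that fell were SGK3, AKT1 and the 14-3-3 genes YWHAZ and YWHAE, whose proteins bind phosphorylated FOXO. The 14-3-3 genes were divided, since YWHAH (adjusted p = 0.0307) and SFN (adjusted p = 0.0249, limma) rose and YWHAB, YWHAG and YWHAQ did not pass. AKT1 measured 60.2 and 74.6 FPKM in KLF11 siRNA libraries, against 95.6 and 89.9 FPKM in control siRNA libraries. With TPM scaling 5 of these genes rose and 4 fell, without KLF11 siRNA replicate 1 there were 4 higher and 3 lower, and with no filter 1 higher and 0 lower.

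Known FOXO targets moved in either direction. Of 22 tested, 5 rose (22.7%, against 13.5% of all tested genes) and 7 fell (31.8%, against 21.7%), and the median log2 change was 0.11. CDKN1A, the CDK inhibitor p21, measured 16.2 and 9.09 FPKM in KLF11 siRNA libraries, against 2.12 and 2.11 FPKM in control siRNA libraries (5.98-fold higher, adjusted p = 0.00685, limma). GADD45B rose 2.95-fold, SESN1, a sestrin that restrains mTORC1, 2.12-fold, FBXO32, the ubiquitin ligase atrogin-1, 6.76-fold and PIK3IP1, a PI3K inhibitor, 2.01-fold. FBXO32 passed the filter through the KLF11 siRNA libraries alone. GABARAPL1, an autophagosome protein, fell to 71.1 and 78.4 FPKM in KLF11 siRNA libraries, against 159.6 and 170.3 FPKM in control siRNA libraries. CITED2, GADD45A and TRIB1 were among the others that fell, with log2 changes of -0.71, -0.77 and -0.55. CDKN1A is also a target of p53, and GADD45A and SESN1 are too, so the list is not particular to FOXO. With no filter 2 were higher and 4 lower. TXNIP, also on the list, was not found under that symbol and so was not analysed.

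FOXP1 rose and FOXP4 did not pass. FOXP1 (ENSG00000114861), a repressor of lymphoid, heart and lung development with a splice form known from pluripotent cells, measured 9.95 and 10.9 FPKM in KLF11 siRNA libraries, against 6.18 and 5.31 FPKM in control siRNA libraries. The groups stood apart, and the mean was 1.81-fold higher (log2 change 0.76, SE 0.137, adjusted p = 0.0142, limma). FOXP4 measured 24.1 and 25.4 FPKM in KLF11 siRNA libraries and 27.4 and 23.7 FPKM in control siRNA libraries, with both KLF11 siRNA values inside the control range and a 95% interval of the log2 change of -0.32 to 0.24. The ratio of FOXP1 to FOXP4 in FPKM was 0.413 and 0.428 in KLF11 siRNA libraries, against 0.225 and 0.225 in control siRNA libraries. Gene-level values do not show which FOXP1 splice form was made. FOXP3, the factor of regulatory T cells, reached at most 0.22 FPKM.

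FOXP2, known for its part in speech and neural circuits, went the other way at low level. It measured 0.14 and 0.11 FPKM in KLF11 siRNA libraries, against 1.26 and 1.26 FPKM in control siRNA libraries, and its mean over the libraries was under the filter. Fitted without the filter it passed as lower (log2 change -1.01, adjusted p = 0.0414, limma), in a fit of 34232 genes in which 2.59% were higher and 3.65% lower.

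FOXN3 (ENSG00000053254), a repressor tied to cell cycle checkpoints, measured 30.4 and 24.7 FPKM in KLF11 siRNA libraries, against 17.2 and 18.7 FPKM in control siRNA libraries. The lower KLF11 siRNA library still lay above both controls. Its mean was 1.53-fold higher (log2 change 0.58, SE 0.132, adjusted p = 0.0252, limma), a call that was lost without KLF11 siRNA replicate 1 (adjusted p = 0.0588) and with no filter (adjusted p = 0.0813). FOXN2 measured 3.73 and 3.8 FPKM in KLF11 siRNA libraries and 3.41 and 2.84 FPKM in control siRNA libraries, apart but not past the threshold (adjusted p = 0.348, limma). FOXN1, the factor of the thymic epithelium, was listed at 0 in every library and FOXN4, of retina and spinal cord, reached at most 0.06 FPKM.

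FOXD3 (ENSG00000187140), which maintains mouse pluripotent cells and specifies the neural crest, measured 10.5 and 8.17 FPKM in KLF11 siRNA libraries, against 1.17 and 1.13 FPKM in control siRNA libraries. The control libraries lay close together near 1 FPKM, and both KLF11 siRNA libraries were several times higher. The mean was 8.13-fold higher (log2 change 2.26, SE 0.178, adjusted p = 0.00322, limma). In the same KLF11 siRNA libraries the pluripotency markers summed higher than in controls. Of 9 tested, 7 were higher (77.8%, against 13.5% of all tested genes) and 1, LIN28A, was lower (11.1%, against 21.7%). Any tie of these markers to FOXD3 was not tested.

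Neural crest specifiers, the other setting in which FOXD3 acts, moved in either direction. Of 11 tested 4 rose (36.4%, against 13.5% of all tested genes) and 2 fell (18.2%, against 21.7%), with a median log2 change of 0.29. TWIST1, also a mesenchymal factor, measured 14.1 and 8.01 FPKM in KLF11 siRNA libraries, against 1.08 and 0.79 FPKM in control siRNA libraries. The receptor NGFR rose 5.10-fold, MSX1 4.83-fold and ZIC1 by 1.46 on the log2 scale. SOX10, a defining factor of migrating crest, fell to 0.65 and 0.89 FPKM in KLF11 siRNA libraries, against 7.38 and 6.53 FPKM in control siRNA libraries, and ETS1 fell too (log2 change -0.68). TWIST1, NGFR and MSX1 passed the filter through the KLF11 siRNA libraries alone, and SOX10 through the control siRNA libraries alone. Under the filter, SOX9 measured 1.62 and 1.45 FPKM in KLF11 siRNA libraries, against 0.39 and 0.32 FPKM in control siRNA libraries. SNAI2 was likewise higher, at 1.59 and 1.46 FPKM against 0.24 and 0.10 FPKM. TFAP2A was lower, at 0.23 and 0.54 FPKM against 0.79 and 0.85 FPKM, and PAX3 overlapped between the groups. TFAP2B was listed at 0 in every library.

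Genes on the opposite strand beside FOXD3, FOXD1 and FOXL2 rose with KLF11 siRNA. FOXD3-AS1, a noncoding RNA that overlaps FOXD3, measured 88.7 and 63.7 FPKM in KLF11 siRNA libraries, against 12.98 and 12.6 FPKM in control siRNA libraries (5.96-fold higher, adjusted p = 0.00245, limma). FOXD1-AS1 measured 6.77 and 4.43 FPKM in KLF11 siRNA libraries, against 0.41 FPKM and 0 in control siRNA replicates 1 and 2 (adjusted p = 0.00544, limma). Its partner FOXD1, a marker of kidney stroma, measured 0.25 and 0.74 FPKM in KLF11 siRNA libraries, against 0 and 0.01 FPKM in control siRNA libraries. FOXL2NB, within 5 kb of FOXL2, measured 2.49 and 2.15 FPKM in KLF11 siRNA libraries, against 0.49 and 0.41 FPKM in control siRNA libraries (adjusted p = 0.0116, limma). FOXD1-AS1 and FOXL2NB averaged under 1 FPKM in control siRNA libraries and passed the filter through the KLF11 siRNA libraries alone. FOXL2, the ovarian granulosa factor, measured 1.48 and 1.32 FPKM in KLF11 siRNA libraries, against 0.30 and 0.33 FPKM in control siRNA libraries, and missed the threshold when fitted without the filter (adjusted p = 0.0585, limma). The strand setting of the counting is not given in the sources used here, so reads of overlapping partners such as FOXD3 and FOXD3-AS1 cannot be told apart. Within 5 kb there were 13 annotated neighbours on the opposite strand that averaged at least 0.5 FPKM over the libraries. Of these 3 rose, 9 did not pass and 1 was not tested, and of all tested genes 13.5% were higher. Of 6 such neighbours on the same strand 5 did not pass and 1 was not tested. Neighbours under that level were not counted. FOXN3-AS1 (adjusted p = 0.755) and FOXP4-AS1 (adjusted p = 0.742, limma) overlapped between the groups. FOXD2-AS1, the untested opposite-strand neighbour, measured 0.45 and 0.50 FPKM in KLF11 siRNA libraries, against 0.98 and 0.73 FPKM in control siRNA libraries.

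**Figure D2:**
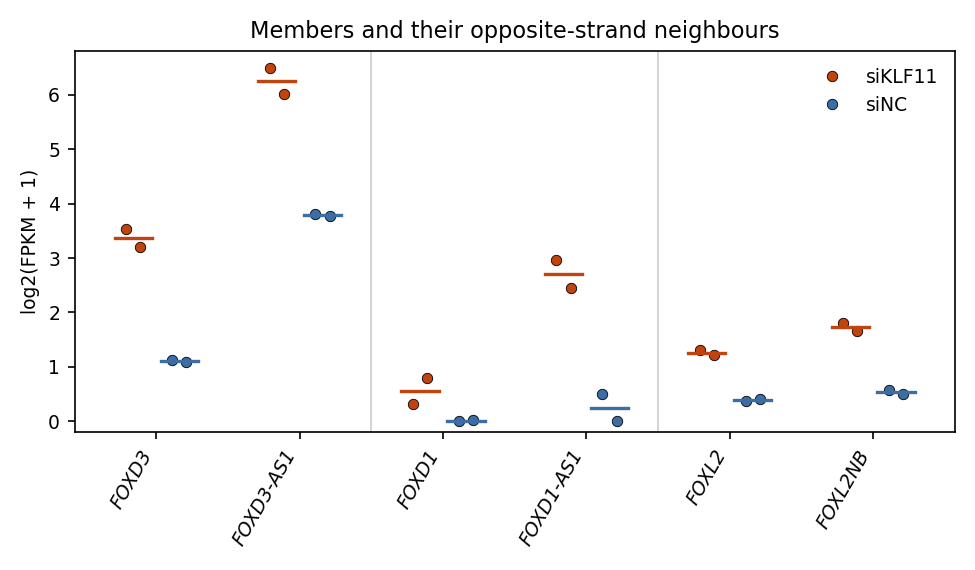
Levels as log2(FPKM + 1) of 3 members and the gene beside each on the opposite strand, with KLF11 siRNA (siKLF11) left of control siRNA (siNC). Points are libraries and bars group means (n = 2 each). In each pair the KLF11 siRNA libraries sit above the controls for both genes, with FOXD1 near the floor.

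FOXB1 (ENSG00000171956), known in mouse from the developing hypothalamus and neural tube, measured 2.64 and 1.83 FPKM in KLF11 siRNA libraries, against 0.10 and 0.10 FPKM in control siRNA libraries, which lay close to the floor. The mean was 22.4-fold higher, and the fitted log2 change of 1.54 (SE 0.229, adjusted p = 0.00912, limma) is smaller because 1 is added to each value. It passed the filter through the KLF11 siRNA libraries alone. With pseudocounts of 0.1 and 5 the log2 change was 3.52 and 0.50. FOXB2 was listed above 0 in 1 library alone, at 0.06 FPKM.

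FOXM1 (ENSG00000111206) was the most abundant member in every library. It measured 45.7 and 41.9 FPKM in KLF11 siRNA libraries, against 38.3 and 32.6 FPKM in control siRNA libraries. The groups did not overlap, but the difference did not pass (log2 change 0.30, 95% interval 0.01 to 0.59, adjusted p = 0.0935, limma). It passed as higher with median-of-ratios scaling (adjusted p = 0.0359) and with quantile normalization (adjusted p = 0.0448). FOXM1 held 21.4% and 20.8% of the summed FPKM of the 40 genes in KLF11 siRNA libraries, against 21.4% and 19.2% in control siRNA libraries.

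Of 35 partners and targets of FOXM1, all tested, 21 rose (60%, against 13.5% of all tested genes) and 0 fell (against 21.7%) in limma. At an unadjusted p under 0.05 there were 24 higher and 0 lower, against 7353 of all 15320 tested genes in either direction (limma). The median log2 change was 0.43. The MuvB genes on the list, LIN9, LIN37, LIN52, LIN54 and RBBP4, did not pass. CENPF, a kinetochore protein, measured 53.8 and 50.1 FPKM in KLF11 siRNA libraries, against 27.6 and 27.6 FPKM in control siRNA libraries. BUB1B, of the spindle checkpoint, rose 1.99-fold, TOP2A, the mitotic topoisomerase, 1.53-fold and UBE2C, the ubiquitin enzyme of mitotic exit, 1.54-fold. The count higher was 17 with TPM scaling, 24 with median-of-ratios scaling and 11 with no filter, and 0 fell in any of these. Many of these genes also depend on other cell cycle factors.

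FOXK1 and FOXK2, which recruit SIN3 corepressors, did not pass. FOXK1 measured 5.98 and 7.00 FPKM in KLF11 siRNA libraries, against 9.31 and 8.48 FPKM in control siRNA libraries (log2 change -0.40, 95% interval -0.76 to -0.05, adjusted p = 0.0744, limma). Its libraries stood apart and the KLF11 siRNA ones were lower. Without KLF11 siRNA replicate 2 it passed as lower (log2 change -0.50, adjusted p = 0.04998). FOXK2 measured 22.0 and 23.9 FPKM in KLF11 siRNA libraries and 22.9 and 26.6 FPKM in control siRNA libraries, with overlap and a 95% interval of -0.39 to 0.19.

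Corepressors and cofactors that forkhead proteins are known to bind moved in either direction. Of 26 tested, 11 fell (42.3%, against 21.7% of all tested genes) and 5 rose (19.2%, against 13.5%), with a median log2 change of -0.21, but with median-of-ratios scaling 7 fell and 7 rose, and without KLF11 siRNA replicate 1 there were 9 lower and 2 higher. With no filter 3 were lower and 0 higher. RBBP7, a histone-binding subunit of the SIN3 and NuRD complexes, measured 28.8 and 36.9 FPKM in KLF11 siRNA libraries, against 84.1 and 86.5 FPKM in control siRNA libraries. HDAC1, the histone deacetylase of the same complexes, measured 33.1 and 49.8 FPKM in KLF11 siRNA libraries, against 84.5 and 90.1 FPKM in control siRNA libraries. MTA3 of NuRD fell (log2 change -0.76), as did the Groucho relative TLE3 (log2 change -0.58). TLE1, TLE2 and TLE6 fell too, with log2 changes of -0.43, -2.14 and -1.58. TLE6 passed the filter through the control siRNA libraries alone. The 5 that rose were TLE4, CTBP2, ASXL2, GATAD2A and SAP30, by 1.86-fold, 1.40-fold, 1.46-fold, 1.26-fold and 1.65-fold.

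FOXJ2 and FOXJ3, broadly expressed activators, were lower by similar amounts and did not pass. FOXJ3 measured 12.1 and 11.9 FPKM in KLF11 siRNA libraries, against 14.9 and 14.8 FPKM in control siRNA libraries (adjusted p = 0.0836, limma). FOXJ2 measured 5.13 and 5.40 FPKM in KLF11 siRNA libraries, against 6.55 and 6.48 FPKM in control siRNA libraries (adjusted p = 0.171, limma). In both genes the replicates nearly coincided and the groups stood apart, with log2 changes of -0.28 and -0.26.

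FOXJ1, the master regulator of motile cilia, was low throughout, at 0.30 and 0.26 FPKM in KLF11 siRNA libraries and 0.57 and 0.56 FPKM in control siRNA libraries. Only 9 of 26 genes of motile ciliogenesis averaged 1 FPKM or more, and TEKT1 was listed at 0 in every library. The median log2 change of the 9 was -0.48. Of the 9, 0 rose in limma (against 13.5% of all tested genes) and 4 fell (44.4%, against 21.7%). At an unadjusted p under 0.05 in limma 0 were higher and 4 lower, against 7353 of all 15320 tested genes in either direction. These 4 were the transcription factor MYB, the central pair protein HYDIN, CCDC40 of the axonemal ruler and the calcium-binding CAPS. MYB measured 0.32 and 0.55 FPKM in KLF11 siRNA libraries, against 2.21 and 1.98 FPKM in control siRNA libraries. MYB and HYDIN passed the filter through the control siRNA libraries alone. With quantile normalization 1 fell, and with no filter 1 of 25 fell. A filter of 5 FPKM left 1 gene of the list tested.

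FOXQ1, a regulator of epithelial plasticity, measured 2.00 and 4.27 FPKM in KLF11 siRNA libraries and 2.22 and 1.89 FPKM in control siRNA libraries. KLF11 siRNA replicate 2 stood above the other libraries, which lay close together. Its log2 change was 0.79 (adjusted p = 0.0451, limma) without KLF11 siRNA replicate 1 and -0.024 without replicate 2. FOXF2, a gut and palate mesenchyme factor whose gene lies on chromosome 6 as FOXQ1 does, measured 1.43 and 0.48 FPKM in KLF11 siRNA libraries, against 0.08 and 0.07 FPKM in control siRNA libraries. There replicate 1 was the higher KLF11 siRNA library, unlike for FOXQ1. FOXF1 reached at most 0.06 FPKM, and FOXL1, an intestinal mesenchyme factor, measured 0.29 and 0.53 FPKM in KLF11 siRNA libraries, against 0.16 and 0.06 FPKM in control siRNA libraries.

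Hedgehog signalling, which induces FOXF and FOXL1 genes in mesenchyme, is the next group. The 12 tested genes had a median log2 change of -0.12. At an unadjusted p under 0.05 in limma 2 were higher and 2 lower, against 7353 of all 15320 tested genes in either direction. Past the threshold 1 rose (8.33%, against 13.5% of all tested genes) and 0 fell (against 21.7%). The riser was GLI3, a transcription factor of the pathway, at 7.12 and 6.79 FPKM in KLF11 siRNA libraries, against 3.53 and 3.34 FPKM in control siRNA libraries (adjusted p = 0.0113, limma). With TPM scaling 1 gene fell, and without KLF11 siRNA replicate 1 there were 2 higher.

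**Figure D3:**
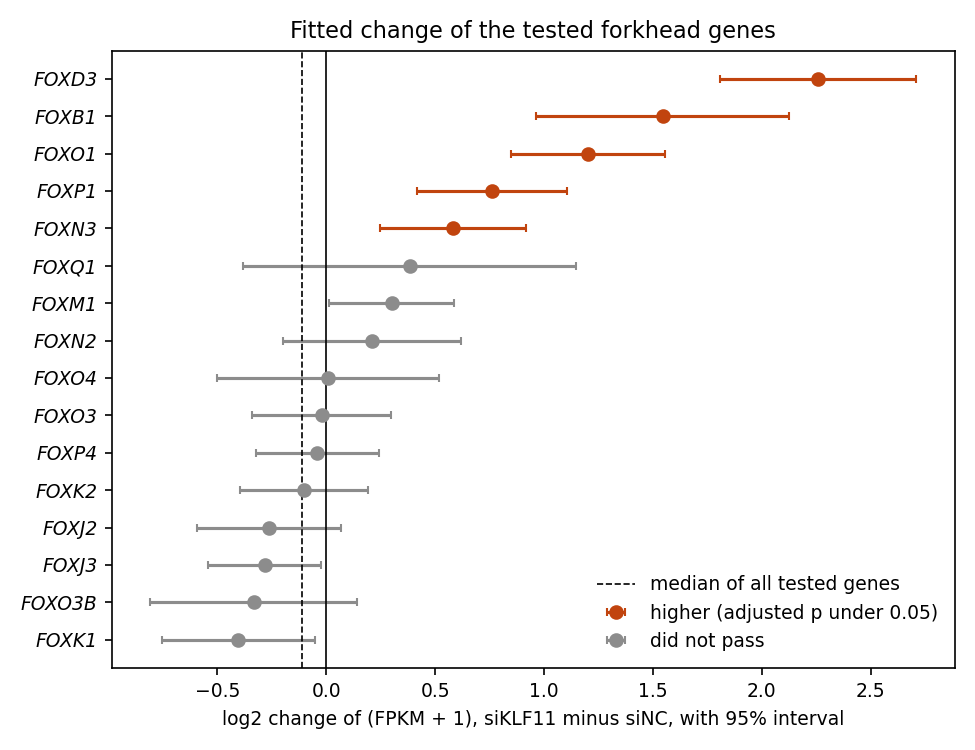
Fitted log2 change of (FPKM + 1), KLF11 siRNA minus control siRNA, for the 16 tested forkhead genes, with 95% intervals from limma. The dashed line marks the median of all tested genes, -0.11. The 5 genes that passed lie right of 0, from 0.58 for FOXN3 to 2.26 for FOXD3.

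**Figure D4:**
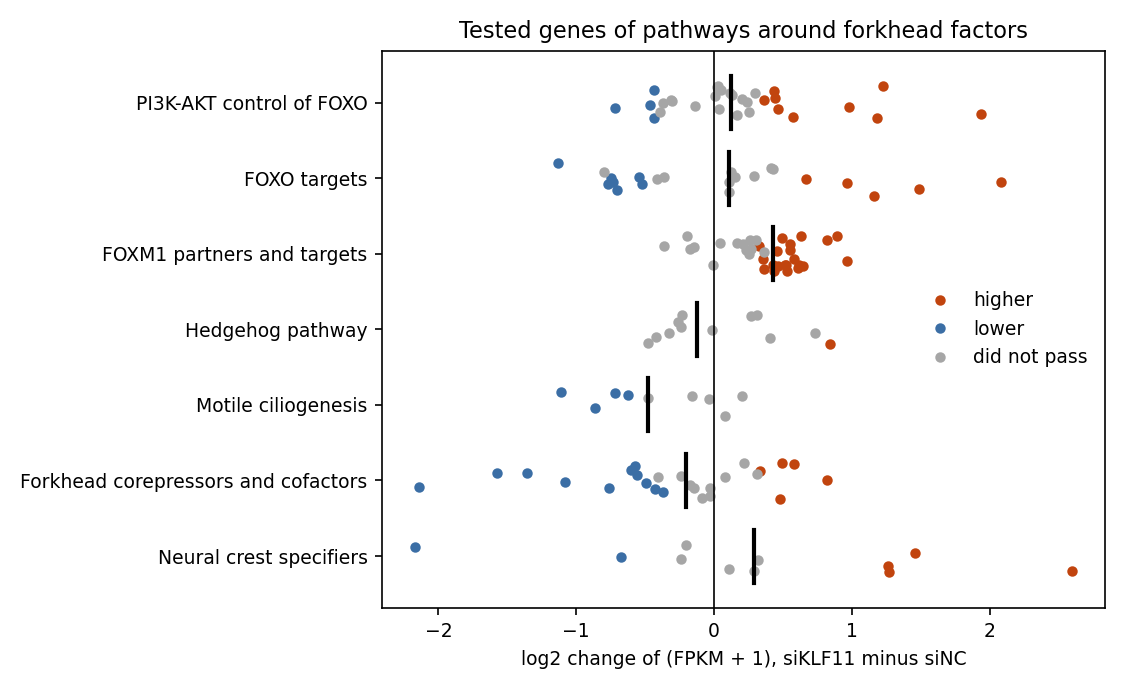
Log2 change of (FPKM + 1), KLF11 siRNA minus control siRNA, of each tested gene in the pathway lists. Dots are genes coloured by call and black bars are list medians, at 0.43 for FOXM1 partners and targets and -0.48 for motile ciliogenesis. Vertical scatter within a row has no meaning.

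The FOXI subfamily, known from ear, kidney and airway ionocytes, was low and divided. FOXI2 measured 0.16 and 0.13 FPKM in KLF11 siRNA libraries, against 1.44 and 1.16 FPKM in control siRNA libraries. FOXI1, the ionocyte factor, measured 0.06 and 0.10 FPKM in KLF11 siRNA libraries, against 0.65 and 0.63 FPKM in control siRNA libraries. Both were clearly lower in KLF11 siRNA libraries, and fitted without the filter both passed as lower (adjusted p = 0.0463 for FOXI2 and 0.0469 for FOXI1, limma). FOXI3, of skin appendages and the otic region, measured 1.77 and 0.84 FPKM in KLF11 siRNA libraries and 0.64 and 0.23 FPKM in control siRNA libraries, apart but far from the threshold without the filter (adjusted p = 0.260, limma).

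**Figure D5:**
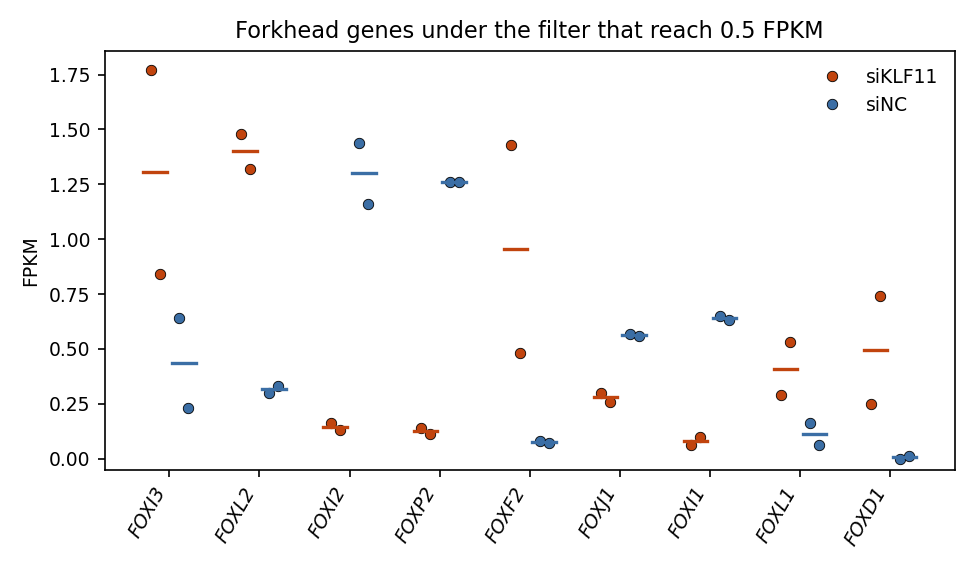
Level in FPKM of the 9 forkhead genes under the filter that reached 0.5 FPKM in some library, ordered by mean, with KLF11 siRNA (siKLF11) left of control siRNA (siNC). Points are libraries and bars group means (n = 2 each). FOXI2, FOXP2, FOXJ1 and FOXI1 sit lower with KLF11 siRNA, and FOXI3, FOXL2, FOXF2, FOXL1 and FOXD1 sit higher.

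Of the 24 genes under the filter 9 reached 0.5 FPKM in some library, 11 stayed below it and 4, FOXE3, FOXN1, FOXR1 and FOXR2, were listed at 0 throughout. FOXD2, FOXE1, of the thyroid, FOXS1 and FOXD4 were among those below 0.5 FPKM, and the highest of these 4 was FOXD2 at 0.22 FPKM. FOXD4 has near-identical copies, so its level is uncertain. The 24 together summed to 6.53 and 5.29 FPKM in KLF11 siRNA libraries, against 5.99 and 4.89 FPKM in control siRNA libraries.

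Over all 40 genes the summed level was 213.6 and 201.3 FPKM in KLF11 siRNA libraries, against 178.9 and 169.7 FPKM in control siRNA libraries. FOXM1, FOXP4, FOXK2 and FOXN3 supplied 57.1% and 57.6% of it in KLF11 siRNA libraries, against 59.1% and 59.9% in control siRNA libraries.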

How the data were processed

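The authors deposited FPKM values of each library for 57905 Ensembl identifiers. The tools RSEM 1.3.1 and Trim Galore 0.5.0 and the build hg19 (GRCh37) stand in the submitters' processing notes. Aligner, annotation release and strand setting: not given in the sources used here. RSEM shares reads among similar transcripts, so levels of near copies are uncertain. Of the table's columns 0 were left unmapped, and groups came from the sample titles.

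Genes with a mean of at least 1 FPKM entered a limma fit (version 3.58.1, R 4.3.3, eBayes with a trend) on log2(FPKM + 1), without a block, with Benjamini-Hochberg adjustment over all 15320 genes and a threshold of 0.05. Such fold changes understate the change of low genes. Folds are ratios of mean FPKM.

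Members, gene lists and motifs were chosen with earlier results of these data known. All tested members, KLF11 and, per list, up to 4 genes with the smallest p in each direction (all where 5 or fewer passed) are named, with a few others chosen after their values were seen. The values of 1 member under the filter are not reported here. Neighbours within 5 kb and gene types came from GENCODE, and sequences from RefSeq (GRCh38.p14), another build than the authors'. Neighbours with a mean under 0.5 FPKM were left out. Alternatives were pseudocounts of 0.1 and 5, no filter, a filter of 5 FPKM, TPM, median-of-ratios and quantile scaling, eBayes without a trend or robust (statmod 1.5.0), a replicate block and each library left out. Figures were drawn with matplotlib 3.10.9.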

Additional observations from a re-analysis of the deposited data

How the results depend on the processing

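With no filter 887 genes were higher and 1251 lower of 34232 (2.59% and 3.65%), and 3 members were higher (FOXB1, FOXD3 and FOXO1) and 3 lower (FOXI1, FOXI2 and FOXP2). With each library left out in turn, genes higher ran from 0 to 2291 and genes lower from 0 to 3813, and members higher from 0 to 5 and lower from 0 to 1. The lowest counts of all genes, and of members higher, came without control siRNA replicate 1 or 2. In those fits the spread rests on the KLF11 siRNA pair, and the lone control is assumed to vary alike. There 4461 and 4793 genes, with 5 and 5 members, had an unadjusted p under 0.05 in limma. Where a member that did not pass changed sign, its log2 change was, with median-of-ratios scaling and quantile normalization, 0.074 and 0.062 for FOXP4, 0.012 and 0.011 for FOXK2 and 0.085 and 0.14 for FOXO3. For FOXO4 it was -0.032 with TPM scaling. Over the fits with a library left out the log2 change ran from -0.14 to 0.062 for FOXP4, -0.21 to 0.0016 for FOXK2, -0.086 to 0.043 for FOXO3, -0.22 to 0.23 for FOXO4 and -0.024 to 0.79 for FOXQ1. The causes were not tested. FOXO1, FOXD3 and FOXB1 passed in every fit with all libraries that tested them, while FOXP1 missed with no filter (adjusted p = 0.0516) and FOXN3 did too. A filter of 5 FPKM left FOXB1 untested. The labels name no pairing, and deviations of same-numbered libraries correlated at -0.07 across genes. With 2 libraries per group this value cannot show whether they were paired. With the replicate number as a block 5 members were higher and 0 lower, and 1707 genes higher and 2644 lower. Among the lists the block left 5 PI3K and AKT genes and 2 corepressors higher and 2 ciliogenesis genes lower. Unknown depth limits the members below 1 FPKM.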
